A study of Mus musculus with 5 samples.

Results

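In cultures of bone marrow-derived dendritic cells (BMDCs), compared between controls and *Irf8* overexpression (*Irf8*-OE), 66 protein-coding autosomal genes were almost silent in both controls and read in *Irf8*-OE. They were chosen by a rule on the control values: protein-coding, not on X or Y, no more than 3 reads in each control (under 3.5 normalized counts in control 1 and under 3.0 in control 2), and a symbol outside the families of immunoglobulin, collagen, solute carrier, interleukin, chemokine and similar genes that the rule leaves out by the first letters of the name. The deposited table lists 1355 genes, of which 1092 were protein-coding and autosomal and 981 of those had an allowed name. The rule therefore took 66 of 981. Beyond the rule itself, every listed gene had already been selected by the authors for a difference between *Irf8*-OE and control, so the difference of the 66 genes between the groups is described here and not tested. Turned round, the same limits in all 3 *Irf8*-OE samples took 9 of the 981 genes.

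The study asked what more *Irf8* in CD11c-expressing cells does to the dendritic cell transcriptome. The 3 *Irf8*-OE samples carried *Irf8* CAG-LSL, a cassette at a safe-harbor locus that drives Flag-tagged *Irf8* once a stop sequence is cut out, together with *Itgax* Cre, in which the promoter of *Itgax* (encoding CD11c) drives Cre; cells that have never expressed *Itgax* keep the stop. The 2 control samples are wild type by the labels and *Irf8* CAG-LSL without Cre by the text of the study. All 5 came from bone marrow of 8-week-old C57BL/6 mice that the labels call male, grown with 5 ng/ml GM-CSF and 200 ng/ml Flt3L, replated on day 9 and collected as non-adherent cells on days 15 to 16, and all are labelled as stimulated with TNF-α, for which a dose of 20 ng/ml is given. These sources mention no sorting of the cells and do not say whether the samples of a group came from separate mice. *Irf8* is a listed gene, already selected for this contrast, so its values are no independent check of the labels. It had 2835 and 2747 normalized counts in the controls and 7141, 6519 and 6021 in *Irf8*-OE (log2 fold change 1.23, SE 0.08, adjusted p = 8.0e-06, limma). With edgeR on recovered reads its log2 fold change was 0.92, and 0.99 without *Irf8*-OE 3, under the threshold of 1 for a call.

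The libraries went against the labels in sex. *Xist*, which is transcribed from the inactive X chromosome of female cells, was read at 1.12 and 0 normalized counts in the controls and at 10772, 13062 and 13476 in *Irf8*-OE. The 4 listed Y-linked genes lay between 484 and 1385 in the controls and had 0 reads in all *Irf8*-OE samples. This split falls exactly between the groups, so genotype and sex of the cells cannot be told apart for any of the 66 genes, and no value without the libraries concerned can be given. Reads on listed genes numbered 901597 and 1062127 in the controls and between 646123 and 689416 in *Irf8*-OE, and the depth of the whole libraries is unknown. Of the 23 genes of a list of markers of conventional type 1 dendritic cells, 5 were listed, all higher in *Irf8*-OE. Of all listed genes 58.1% were called higher. The 5 include *Irf8* itself, the gene that the design overexpresses, beside *Itgae*, *Plet1*, *Sept3* and *Tlr11*. *Itgae* (CD103) had a mean of 51.7 in the controls and 162 in *Irf8*-OE. Markers outside the table were not analysed here.

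IRF8 is a transcription factor of the interferon regulatory factor family that dendritic cells, monocytes and B cells depend on. Alone it binds DNA weakly, and it acts mainly with partners such as PU.1 at ETS-IRF composite elements, BATF and JUN at AP1-IRF composite elements, and other IRFs at interferon-stimulated response elements (ISREs). A bone marrow culture with GM-CSF and Flt3L favors dendritic cells but also holds granulocytes, mast cells and their precursors, and stromal cells of the marrow. In bulk RNA, a change in the number of cells of a type and a change in the RNA per cell cannot be told apart.

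Together the 66 genes held 66 reads in each control, against 1372, 1353 and 1275 in *Irf8*-OE. Their summed level was 74.2 and 63.3 normalized counts in the controls and 1315, 1263 and 1281 in *Irf8*-OE, a mean of 1286 ± 26.4 (SD, n = 3). They took between 0.196% and 0.206% of the listed reads in *Irf8*-OE, so these are rare transcripts there too. In the controls 21 of the genes had 0 reads in both samples, 45 had at least 1 read in 1 of them, and 22 had a read in both. No gene exceeded 6 reads over the 2 controls. Over the 3 *Irf8*-OE samples a gene held from 19 to 352 reads.

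Most of these genes stayed at a low level in *Irf8*-OE. The mean was at least 100 normalized counts for 1 gene, 50 to 100 for 2, 20 to 50 for 15, 10 to 20 for 38 and under 10 for the last 10. Their median mean was 15.1 normalized counts, against 127 for the 535 other protein-coding autosomal genes with an allowed name that were called higher. All 66 were called higher by limma and all had every *Irf8*-OE value above every control value. Of the 1355 listed genes 99.1% were called in either direction and 58.1% called higher, 58.8% had every *Irf8*-OE value above every control value, and in 100.0% the groups did not overlap, while 61.3% of the 981 genes were called higher. Since the rule used this contrast, nothing is read from that count. In 42 genes every *Irf8*-OE sample held at least 10 reads, while *Cd3e* and *Bhlhe22* fell to no more than 3 reads in 1 *Irf8*-OE sample.

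**Figure D1:**
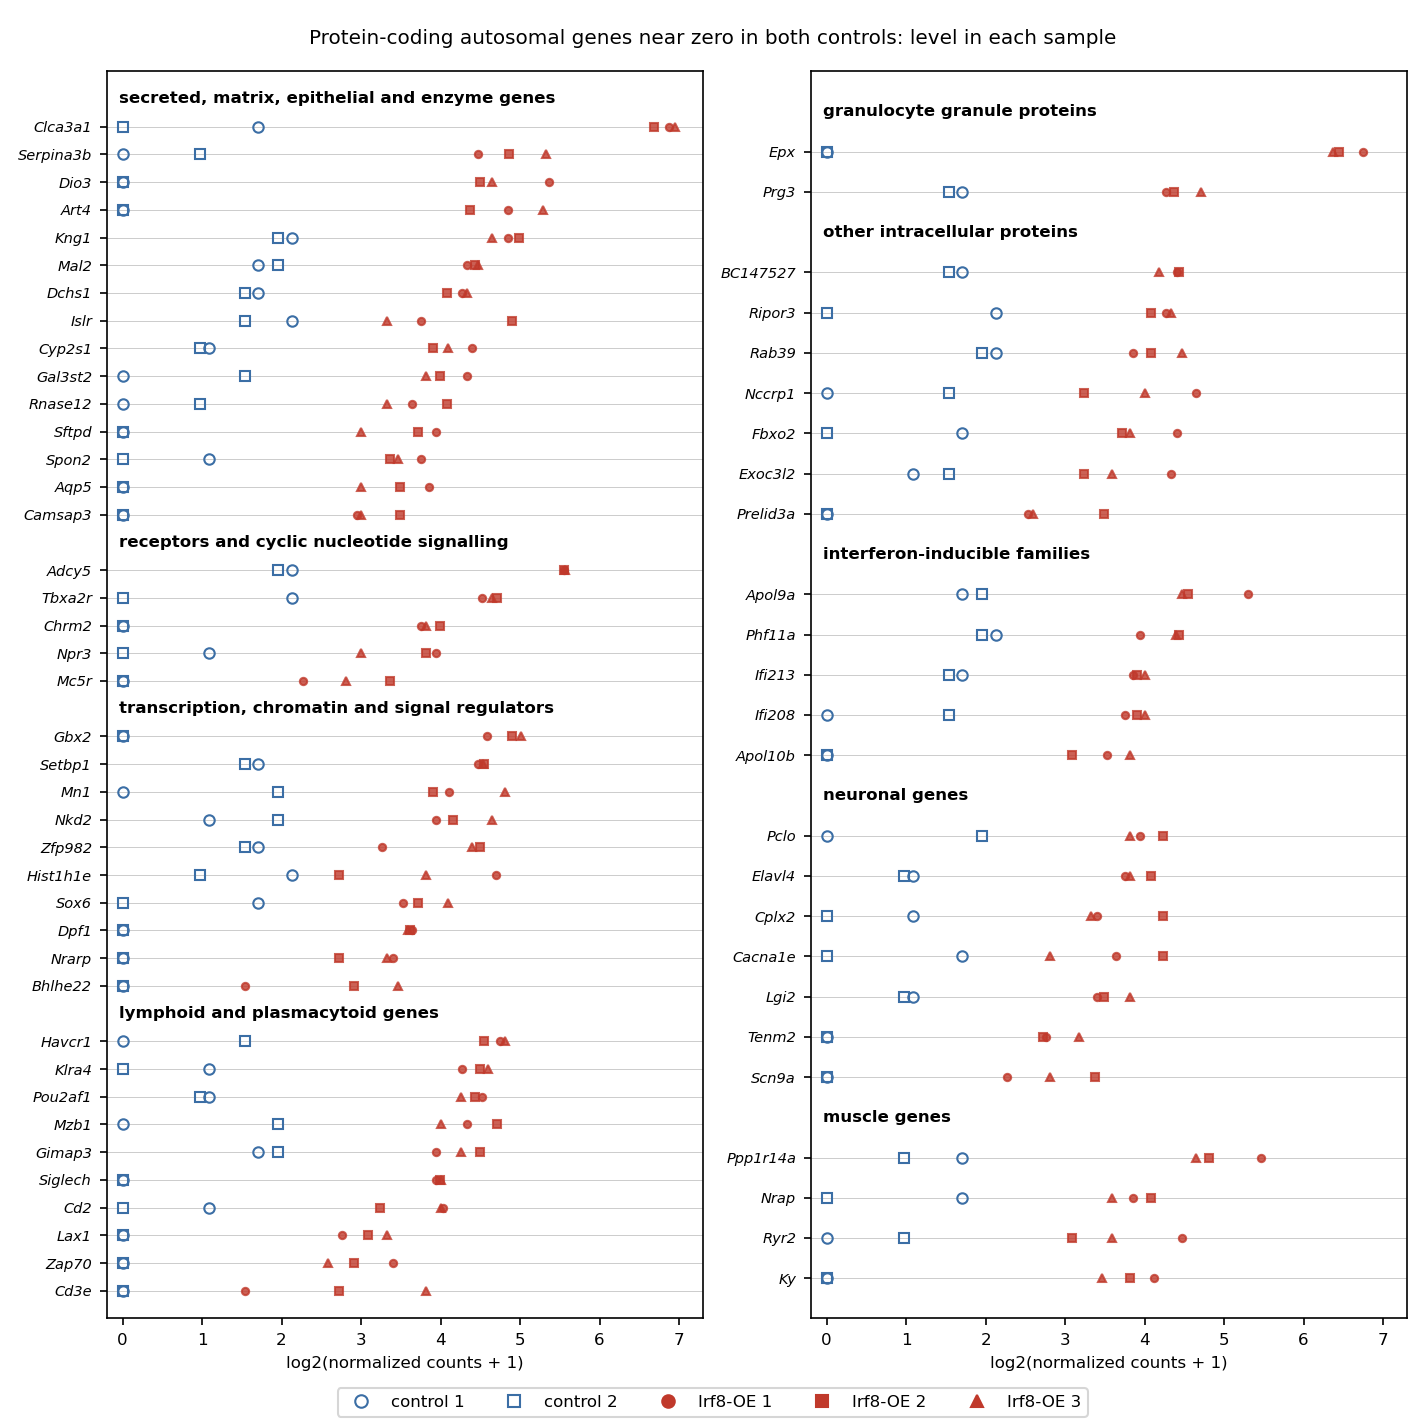
Level of 65 of the 66 genes in each sample, as log2(normalized counts + 1) on the horizontal axis, with open blue symbols for the 2 controls and filled red symbols for the 3 *Irf8*-OE samples, ordered by role group and mean level. *Clca3a1* and *Epx* stand to the right of the others, 21 genes have both controls at 0, and in the row of *Cd3e* the 3 *Irf8*-OE samples are spread from 1.92 to 13.1 normalized counts.

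At the edge of the rule stood *Adcy5*, *Kng1* and *Phf11a*, each with 3 reads in each control. Just outside were *Clstn3* and *Ly6d*, with 0 and 4 reads, and *Adcy8*, with 4 and 0 reads in controls 1 and 2. *Clstn3* had a mean of 14.2, *Ly6d* of 16.9 and *Adcy8* of 24.6 normalized counts in *Irf8*-OE, inside the range of the genes that the rule took. A fold is given below as a lower bound, against a floor of 3 reads per control library (3.13 normalized counts), where both controls had 0 reads. It is otherwise the ratio of pooled reads per normalized library with a 95% exact interval that covers counting error only and is no test, since the rule limited the control reads. The bounds ran from 1.97 to 29.2 and the median ratio was 12.8, with 5.38 as the lowest.

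Promoter sequences from RefSeq (GRCm38.p6, 250 bases before to 50 after each start) were found for 50 of the 66 genes, in 67 windows. They were searched on both strands for the letters of elements that IRF proteins are known to bind. The ISRE-like letters, GAAA, any 2 bases and GAAA, stood in 10 of the 67 windows (14.9%), against 3.44% of all 32851 windows. They stood in 5.97% of the 486 windows of the other listed protein-coding autosomal genes with an allowed name and a higher mean in *Irf8*-OE. The 9 genes were *Ifi208*, *Ifi213*, *Phf11a*, *Apol9a*, *Apol10b*, *Clca3a1*, *Gal3st2*, *BC147527* and *Zfp982*. Shown first are stretches before the start of 6 of them, with the match in capitals, read along the strand of the gene. They are chr1:173599301-173599380 (*Ifi213*, minus strand), chr1:173673572-173673651 (*Ifi208*, plus), chr14:59297523-59297586 (*Phf11a*, minus), chr3:144760978-144761032 (*Clca3a1*, minus), chr1:93861160-93861239 (*Gal3st2*, plus) and chr13:120300247-120300326 (*BC147527*, plus).
Ifi213: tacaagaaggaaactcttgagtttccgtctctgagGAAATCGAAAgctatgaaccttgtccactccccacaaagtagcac
Ifi208: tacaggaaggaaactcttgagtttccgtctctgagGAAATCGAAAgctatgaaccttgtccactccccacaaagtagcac
Phf11a: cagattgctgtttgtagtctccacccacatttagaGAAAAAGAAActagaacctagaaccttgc
Clca3a1: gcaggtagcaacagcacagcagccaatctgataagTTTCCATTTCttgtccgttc
Gal3st2: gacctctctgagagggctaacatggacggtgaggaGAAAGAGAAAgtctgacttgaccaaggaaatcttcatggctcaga
BC147527: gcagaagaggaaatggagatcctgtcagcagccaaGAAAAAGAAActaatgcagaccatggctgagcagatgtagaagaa

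The stretches of *Ifi208* and *Ifi213*, neighbors on chromosome 1, differed at 1 of 80 bases, so these 2 matches stand in almost the same sequence. In *Clca3a1*, the gene with the highest level of all 66, the match lay on the other strand and began 20 bases before the start. In *Phf11a* it began 29 bases before the start. *Apol9a* held 2 overlapping matches on the other strand in each of its 2 overlapping windows, and also the only spaced AP1-IRF letters of the set, TTTC, any 4 bases and TGANTCA (2 windows of 67, against 0.119% of all windows). The closely spaced form, with 1 base between the parts, was in 0 windows of the 67.

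The ETS-IRF letters, GGAA, any base and TGAAA, stood in 2 windows (2.99%), those of *Sox6* and *Zfp982*, against 0.731% of all windows. The TATA box letters TATAAA stood in 7 windows of 6 genes (10.4%), against 13.6% of all. The next lines show the ETS-IRF match of *Sox6* (chr7:116038800-116038879, minus strand) and, for 2 genes among the highest of the set, the TATA letters of *Epx* (chr11:87875537-87875595, minus) and *Serpina3b* (chr12:104127933-104127995, plus), again with the match in capitals and along the strand of the gene.
Sox6: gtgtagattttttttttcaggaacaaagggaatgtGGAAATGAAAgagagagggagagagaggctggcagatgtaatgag
Epx: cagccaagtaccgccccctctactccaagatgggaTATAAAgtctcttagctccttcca
Serpina3b: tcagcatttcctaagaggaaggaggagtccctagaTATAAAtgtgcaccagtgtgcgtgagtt

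In *Epx* the TATA letters began 24 bases before the start, in *Serpina3b* 28 bases and in *Dio3* 31 bases. A match of letters is a description of the sequence, and binding was not measured in this series.

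The largest group by role held 15 genes for secreted, matrix, epithelial and enzyme proteins, with 15.7 and 14.4 summed normalized counts in the controls and 381, 354 and 367 in *Irf8*-OE. *Clca3a1* (chr3:144729677-144760977) encodes a secreted regulator of calcium-activated chloride channels made by epithelia and some endothelial cells. It had 2.25 and 0 normalized counts in the controls and 116, 102 and 123 in *Irf8*-OE, with a ratio of 109 (30.0 to 906). It was the most abundant of the 66 genes in each of the 3 *Irf8*-OE samples (113 ± 10.6, SD, n = 3), which lay close together.

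*Serpina3b*, a serine protease inhibitor gene (chr12:104127996-104139545), had 0 and 0.960 in the controls and 21.1, 28.0 and 39.2 in *Irf8*-OE. *Dio3*, encoding the deiodinase that inactivates thyroid hormone, had 0 reads in both controls and 40.3, 21.5 and 24.1 normalized counts in those of *Irf8*-OE, at least 9.16-fold higher. *Art4*, whose product is an ADP-ribosyltransferase-like protein that carries the Dombrock blood group, was also at 0 in both controls and at 27.8, 19.6 and 38.2 in *Irf8*-OE, at least 9.13-fold higher. These 3 genes had the highest *Irf8*-OE sample in different places, sample 3 for *Serpina3b* and *Art4* and sample 1 for *Dio3*. *Kng1*, encoding kininogen, the precursor of bradykinin, had 3.37 and 2.88 against 27.8, 30.8 and 24.1. *Mal2*, a membrane protein of epithelial transport, stood at 2.25 and 2.88 against 19.2, 20.5 and 21.1.

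The other 9 genes of the group lay between means of 8.00 and 17.7 in *Irf8*-OE. They were *Dchs1* (a giant cadherin), *Islr*, *Cyp2s1* (a cytochrome P450), *Gal3st2* (a galactose sulfotransferase), *Rnase12*, *Sftpd* (surfactant protein D), *Spon2* (a secreted matrix protein), *Aqp5* (a water channel of glands and airways) and *Camsap3* (a microtubule-binding protein of epithelia). *Sftpd*, *Aqp5* and *Camsap3* had 0 reads in both controls. *Islr*, known from mesenchymal stromal cells, was read at 3.37 and 1.92 in the controls and at 12.5, 28.9 and 9.04 in *Irf8*-OE, so its second sample stood far above the other two, and its mean of 16.8 was 10.7 without that sample. *Spon2* had 1.12 and 0 in the controls and 12.5, 9.34 and 10.0 in *Irf8*-OE. *Rnase12*, at 0 and 0.960 against 11.5, 15.9 and 9.04, had the shortest gene model of the 66 (673 bases) and ranked 7 by level per length.

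*Islr* was the only one of the 66 on a list of 59 stromal genes, of which 28 were listed and 25 called higher and 3 lower. The other 27 summed to between 7833 and 7884 in the controls and between 21331 and 21568 in *Irf8*-OE, and none was at 0 in all samples of a group. *Spon2*, alone of the 66, was on a list of matrix genes other than collagens, where 26 of 28 listed genes were called higher and 2 lower. The sum of the other 27 was nevertheless 44602 to 45381 in the controls, against 37289 to 37990 in *Irf8*-OE. Most of that control sum was *Nov*, a gene called lower, which went from a mean of 32164 to 8039. The part of stromal cells in the levels of *Islr* and *Spon2* was not tested.

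**Figure D2:**
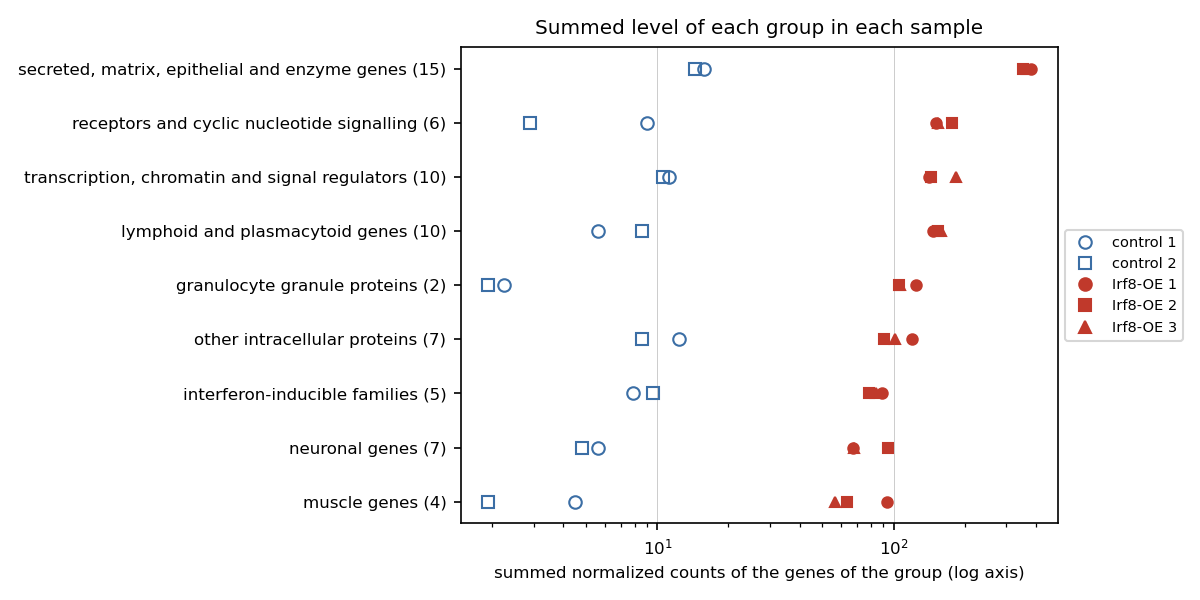
Summed normalized counts of the genes of each role group (number of genes in parentheses) in each sample, on a log axis, with open blue symbols for controls and filled red symbols for *Irf8*-OE samples. In every group the *Irf8*-OE samples lie to the right of both controls, from 56.2 to 93.9 in the muscle genes up to 354 to 381 in the secreted, matrix, epithelial and enzyme genes.

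Receptors and cyclic nucleotide signaling made up 6 genes, of which 5 are described. *Adcy5*, which encodes an adenylyl cyclase that makes cyclic AMP, was read at 3.37 and 2.88 in the controls and at 46.0, 45.7 and 46.2 in *Irf8*-OE, with a ratio of 14.8 (6.64 to 41.0). No other gene of the set had *Irf8*-OE samples so close together. *Adcy8*, of the same family and just outside the rule, was also called higher (2.25 and 24.6). *Tbxa2r*, the thromboxane A2 receptor of platelets and smooth muscle, had 3.37 and 0 against 22.0, 25.2 and 24.1. Other receptors were *Chrm2* (muscarinic acetylcholine receptor), *Npr3* (clearance receptor for natriuretic peptides) and *Mc5r* (a melanocortin receptor), with means of 13.5, 11.5 and 6.40. *Chrm2* and *Mc5r* had 0 reads in both controls and were at least 4.31-fold and 2.05-fold higher.

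Of 10 regulators of transcription, chromatin or signaling, 4 are classed as DNA-binding factors in the authors' table. *Gbx2*, a homeobox gene of the developing brain (chr1:89927956-89931179), had 0 reads in both controls and 24, 31 and 31 in *Irf8*-OE (27.7 ± 4.21 normalized counts, SD, n = 3), at least 8.86-fold higher. It shares exon bases with *D130058E05Rik*, a listed gene that went from a mean of 2.96 to 50.3, and whether the counting used strand is not given in the sources used here, so reads of one may have been counted for the other. *Sox6* (2.25 and 0 against 10.5, 12.1 and 16.1), a factor of red cell and cartilage development, was higher while *Sox5* (64.6 and 18.9) and *Sox7* (261 and 94.9) of the same family were called lower. *Zfp982* went from 2.25 and 1.92 to 8.63, 21.5 and 20.1. *Bhlhe22*, a neuronal basic helix-loop-helix factor, was at 0 in both controls and at 1.92, 6.54 and 10.0 in *Irf8*-OE.

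*Setbp1*, whose product binds the oncoprotein SET, stood at 2.25 and 1.92 in the controls and at 21.1, 22.4 and 22.1 in *Irf8*-OE. *Mn1* (a transcriptional coactivator), *Nkd2* (an inhibitor of Wnt signaling), *Dpf1* (a subunit of neuronal chromatin remodeling complexes) and *Nrarp* (a target and inhibitor of Notch signaling) lay between means of 8.08 and 19.1. *Hist1h1e*, a linker histone gene, was read at 3.37 and 0.960 in the controls and at 24.9, 5.60 and 13.1 in *Irf8*-OE, with a mean of 14.5 that was 9.33 without sample 1, and its lowest *Irf8*-OE sample held only 6 reads.

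Genes of lymphoid and plasmacytoid cells numbered 10 and summed to 5.62 and 8.64 in the controls and to 147, 154 and 159 in *Irf8*-OE. *Pou2af1*, the B-cell coactivator of octamer factors, had 1.12 and 0.960 against 22.0, 20.5 and 18.1. *Mzb1*, an endoplasmic reticulum protein that helps plasma cells to secrete antibody, had 0 and 2.88 against 19.2, 25.2 and 15.1. In both genes all *Irf8*-OE samples were above both controls, as in all 66 genes. *Mzb1* shares exon bases on the same strand with another gene, so some of its reads may belong there.

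*Pou2af1* and *Mzb1* were on a list of 19 plasma cell genes, of which 4 were listed, all higher. The other two, *Jchain* and *Prdm1*, summed to 74.8 to 84.3 in the controls, against 423 to 494 in *Irf8*-OE, and *Jchain* alone, which the rule leaves out by name, went from a mean of 1.92 to 310. The 60 listed immunoglobulin genes, also left out by name, summed to 801 to 856 in the controls, against 6270 to 7012 in *Irf8*-OE. *Ighv1-23*, a gene called lower, made up most of that control sum and went from a mean of 521 to 33.1. On a list of 32 B cell genes, 6 were listed and 5 called higher and 1 lower. Among the higher ones were *Cd79a* (6.17 and 28.6) and *Cd79b* (13.5 and 36.7), and the lower one was *Bank1*. The 6 summed to 178 to 224 in the controls, against 217 to 237 in *Irf8*-OE. No listed gene of these 2 lists was at 0 in all samples of a group, and the part of B or plasma cells in the levels of *Pou2af1* and *Mzb1* was not tested.

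*Siglech*, a surface lectin of plasmacytoid dendritic cells, had 0 reads in both controls and 14.4, 14.9 and 15.1 in *Irf8*-OE, at least 4.73-fold higher and with little spread. Of 21 plasmacytoid dendritic cell genes 5 were listed, 4 higher and 1 lower. Those other than *Siglech* summed to 1362 to 1481 in the controls, against 4285 to 4627 in *Irf8*-OE. Most of that sum was *Ly6c2*, which went from a mean of 1257 to 4045 and is also on a list of monocyte genes. *Siglech* was the only listed plasmacytoid dendritic cell gene with 0 reads in both controls.

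Among genes of T and NK cells, *Klra4*, an activating receptor of the Ly49 family on NK cells, was read at 1.12 and 0 in the controls and at 18.2, 21.5 and 23.1 in *Irf8*-OE. Its relative *Klra3* was called lower (73.5 and 23.2), and so was *Klrb1f* (545 and 111), while *Klrb1b* was called higher (5.04 and 42.8). *Klra4* was 1 of 3 listed genes on a list of 21 NK and innate lymphoid genes. The other two were called lower, with sums of 1194 to 1318 in the controls, against 381 to 429 in *Irf8*-OE. *Havcr1*, a phosphatidylserine receptor of the Tim family found on lymphocytes and kidney epithelium, had 0 and 1.92 against 25.9, 22.4 and 27.1. *Gimap3* had 2.25 and 2.88 against 14.4, 21.5 and 18.1, while the 5 other listed Gimap genes, GTPases of lymphocyte survival that lie within 104 kb on chromosome 6, were all called lower.

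Of the genes of T cell signaling, *Cd3e*, *Zap70* and *Lax1* were among the 10 with a mean under 10. *Cd3e*, a chain of the CD3 complex of the T cell receptor, had 0 reads in both controls and 2, 6 and 13 in *Irf8*-OE, or 1.92, 5.60 and 13.1 normalized counts, with a mean of 6.86 that was 3.76 without sample 3. *Zap70*, the kinase that the receptor calls on, was at 0 in both controls and at 9.59, 6.54 and 5.02 in *Irf8*-OE, highest in the sample where *Cd3e* was lowest. *Cd2*, an adhesion receptor of T and NK cells, stood at 1.12 and 0 against 15.3, 8.40 and 15.1, and *Lax1*, a membrane adaptor of lymphocyte signaling, was at 0 in both controls and at 5.75, 7.47 and 9.04. Each of these 4 genes held between 21 and 40 reads over the 3 *Irf8*-OE samples.

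A list of 25 T cell genes had 9 listed, 8 higher and 1 lower. *Cd3e* and *Trbc1* were at 0 in both controls, and *Trbc1* had a mean of 7.34 and *Trbc2* of 11.6 in *Irf8*-OE. The listed genes other than *Cd2* and *Cd3e* summed to 1131 to 1174 in the controls, against 947 to 1011 in *Irf8*-OE. Most of the control sum came from *Icos*, the 1 gene called lower, which went from a mean of 898 to 254. The part of T cells in the levels of these genes was not tested.

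Granule proteins of eosinophils were represented by a pair of genes. *Epx*, eosinophil peroxidase (chr11:87864000-87875536), had 0 reads in both controls and 106, 85.9 and 81.4 normalized counts in *Irf8*-OE, a mean of 91.2 ± 13.3 (SD, n = 3) and at least 29.2-fold higher, the highest bound of the set. Per kilobase of gene model it was the most abundant of the 66 genes, at 33.3 normalized counts, before *Clca3a1* at 29.1, and *Ppp1r14a*, *Prg3* (22.1) and *Mzb1* (21.9) came next. *Prg3*, a basic protein of the eosinophil granule, had 2.25 and 1.92 in the controls and 18.2, 19.6 and 25.1 in *Irf8*-OE, a ratio of 10.1 (3.76 to 38.2).

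Other genes of eosinophils moved the other way. *Siglecf* (622 and 181), *Il5ra* (175 and 23.1), *Ear6* (294 and 139) and *Ccr3* (52.6 and 10.8) were all called lower in *Irf8*-OE. Of 24 mast cell, basophil and eosinophil genes 16 were listed, 3 higher (*Epx*, *Mcpt8* and *Prss34*) and 13 lower, and those other than *Epx* summed to 231873 to 236182 in the controls, against 36089.5 to 39921.7 in *Irf8*-OE. *Mpo*, the related peroxidase of neutrophil precursors that lies 59.6 kb from *Epx*, went from a mean of 10.8 to 996, and the granule proteases *Elane* (124 and 274) and *Prtn3* (206 and 548) were also higher. Of 19 neutrophil genes 7 were listed, 4 higher and 3 lower, with *Ly6g* (164 and 9.68) and *Mmp9* (379 and 97.6) among the lower ones, and the 7 summed to 1245 to 1289 in the controls, against 2312 to 2449 in *Irf8*-OE. *Epx* was the only listed gene of its list at 0 in both controls, and the part of any granulocyte in its level was not tested.

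Of 5 genes of interferon-inducible families, *Apol9a* was the most abundant, with 2.25 and 2.88 in the controls and 38.3, 22.4 and 21.1 in *Irf8*-OE. *Apol10b*, an apolipoprotein L gene that marks activated dendritic cells, was at 0 in both controls and at 10.5, 7.47 and 13.1. *Ifi208* and *Ifi213*, of the PYHIN family that senses nucleic acids, had 0 and 1.92 against 12.5, 14.0 and 15.1, and 2.25 and 1.92 against 13.4, 14.0 and 15.1. *Phf11a* stood at 3.37 and 2.88 against 14.4, 20.5 and 20.1. The sums of the 5 genes were 7.87 and 9.60 in the controls and 89.1, 78.4 and 84.4 in *Irf8*-OE.

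All listed relatives of these 5 genes were called higher, as were 58.1% of all listed genes. *Apol7c* went from a mean of 46.9 to 414, *Apol8* from 4.81 to 44.7 and *Apol6* from 3.85 to 21.4. *Ifi204* (162 and 547), *Ifi211* (40.1 and 191) and *Ifi206* (8.73 and 36.3), and *Phf11b* (76.9 and 179) and *Phf11d* (29.1 and 72.9), did likewise. Of 47 genes of a type I interferon response list 24 were listed and all 24 called higher. Without *Apol9a*, *Ifi208* and *Ifi213* they summed to 2526 to 2542 in the controls, against 8299 to 8821 in *Irf8*-OE. *Apol10b* was 1 of 5 listed genes of a list of 25 for activated or migratory dendritic cells, all 5 higher.

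**Figure D3:**
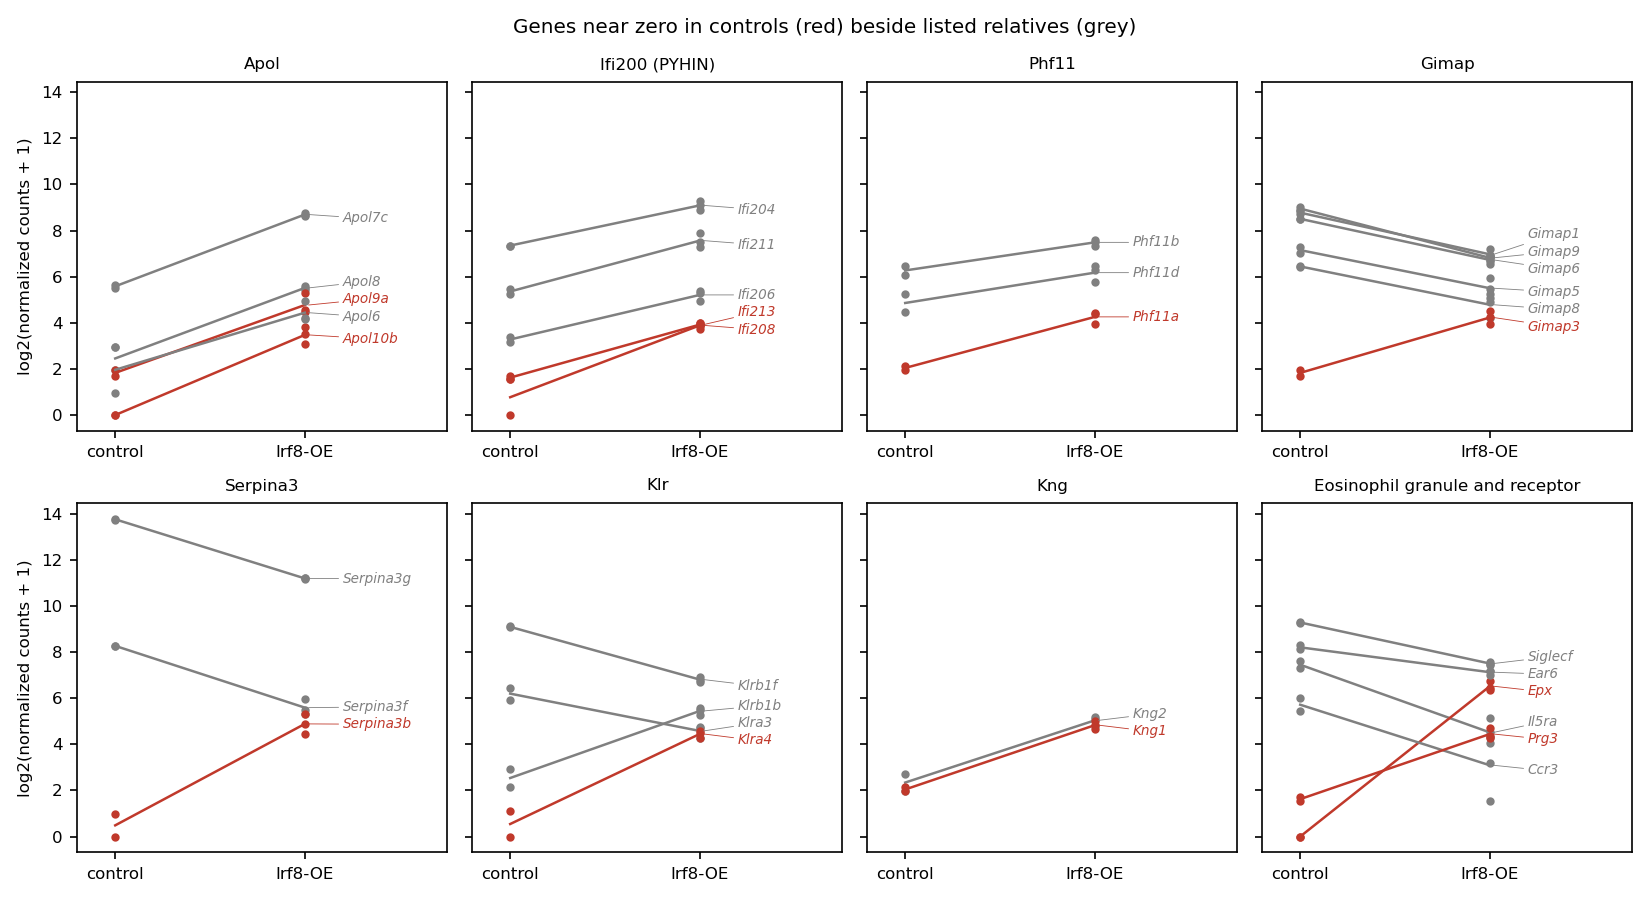
Levels of 11 of the 66 genes (red) and their listed relatives (grey) as log2(normalized counts + 1), with a point per sample and a line between the group means. The red genes start near 0 in every panel, while grey relatives rise in the Apol, Ifi200, Phf11 and Kng panels and fall in the Gimap, Serpina3 and eosinophil panels; in the Klr panel *Klrb1b* rises and *Klra3* and *Klrb1f* fall.

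*Serpina3b* ran against its relatives. *Serpina3g* (13837 and 2341) and *Serpina3f* (307 and 48.2), protease inhibitors encoded within 96.7 kb of it, were both called lower. *Kng1* was higher together with its neighbor *Kng2* (4.25 and 32.1). *Rnase12* was higher while *Rnase6* (1688 and 417), 66.2 kb away, was lower. Of the 66 genes, 40 had another listed gene within 500 kb, and outside the set these neighbors were 45 genes called higher and 30 called lower. Since 58.1% of all listed genes were called higher, no tendency of neighbors is read from this count. The pairs within the set were *Ppp1r14a* and *Dpf1* (10.2 kb apart), *Ifi208* and *Ifi213* (74.4 kb) and *Apol9a* and *Apol10b* (173 kb). The 66 genes lay on 18 chromosomes, with 8 on chromosome 7 as the highest number.

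The 7 neuronal genes lay at means of 6.40 to 15.1 in *Irf8*-OE and at no more than 2.56 normalized counts per kilobase. *Pclo* and *Cplx2* encode proteins of the presynaptic terminal, *Elavl4* a neuronal RNA-binding protein, *Cacna1e* and *Scn9a* a calcium and a sodium channel, and *Lgi2* and *Tenm2* proteins of synapse formation. *Elavl4* had 1.12 and 0.960 in the controls and 12.5, 15.9 and 13.1 in *Irf8*-OE. Of 29 neural and glial genes 5 were listed, 4 higher and 1 lower, and those other than *Elavl4* summed to 146 to 151 in the controls, against 382 to 406 in *Irf8*-OE. Channel relatives were mixed, with *Scn3a* (35.3 and 167) and *Cacna1c* (9.21 and 31.2) higher and *Cacna1h* (329 and 45.8) lower.

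The 4 muscle genes were led by *Ppp1r14a*, an inhibitor of the phosphatase that relaxes smooth muscle, with 2.25 and 0.960 in the controls and 43.1, 27.1 and 24.1 in *Irf8*-OE. *Nrap*, *Ryr2* and *Ky*, which serve the contractile apparatus and calcium release, had means of 13.4, 13.2 and 13.1. All 4 genes were lower in sample 3 than in sample 1 of *Irf8*-OE, and the summed level was 93.9, 63.5 and 56.2 in the 3 samples. None of the 4 was on a list. Of 31 skeletal muscle genes only *Neb* was listed, and it was called lower (1968 and 352). Of 22 smooth muscle and pericyte genes 6 were listed, all higher. The last 7 genes encode other intracellular proteins, with sums of 12.4 and 8.64 in the controls and 120, 91.5 and 101 in *Irf8*-OE. They were *BC147527* (2.25 and 1.92 against 20.1, 20.5 and 17.1), *Ripor3*, *Rab39* (a vesicle GTPase), *Nccrp1* and *Fbxo2* (F-box-associated domain proteins), *Exoc3l2* and *Prelid3a*.

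The rule did not set the 3 *Irf8*-OE samples against one another, but the authors' selection by adjusted p-value depends on the spread among them and takes fewer genes of wide spread at low counts, so the spread is a description of selected genes. The highest sample was over 2 times the lowest in 14 of the 66 genes and no more than 1.5 times in 31, with a median of 1.55. The widest ratios were those of *Cd3e* (6.81), *Bhlhe22* (5.24) and *Hist1h1e* (4.45), and the narrowest was that of *Adcy5* (1.01). No sample led the set, since the highest value fell in sample 1 for 21 genes, in sample 2 for 21 and in sample 3 for 24. The lowest value fell there for 27, 19 and 20 genes.

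The median coefficient of variation was 22.7%, against 16.5% for the 246 other called-higher genes with an allowed name and a mean in the same range. Those genes had a higher median level (49.9 normalized counts), and lower counts vary more. An index divides the variance of reads by that expected from counting alone. Counting error alone gives it a mean of 1 and, with 3 samples, a median under 1. Its median was 0.770 in the 66 genes and 1.37 in the others, and it was no more than 1 for 36 of the 66. A median under 1 thus does not mean less spread than counting error. The index was above 3 for 10 genes, namely *Ppp1r14a*, *Dio3*, *Art4*, *Apol9a*, *Islr*, *Zfp982*, *Nccrp1*, *Hist1h1e*, *Ryr2* and *Cd3e*.

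**Figure D4:**
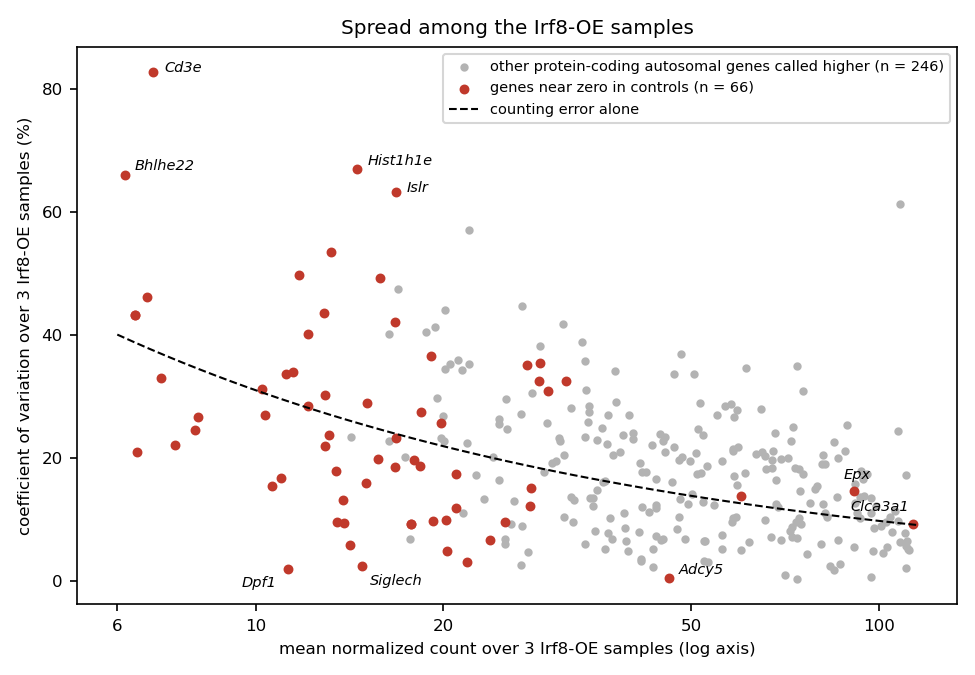
Coefficient of variation over the 3 *Irf8*-OE samples (percent) against mean level (normalized counts, log axis) for the 66 genes (red) and 246 other called-higher genes in the same range of levels (grey), with a dashed line for counting error alone. *Cd3e*, *Bhlhe22*, *Hist1h1e* and *Islr* stand far above the line, while *Adcy5*, *Dpf1* and *Siglech* lie near 0.

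Some counts may hold reads of other genes. *Mzb1*, *Islr* and *Hist1h1e* share exon bases with a gene on the same strand, and 14 of the 66 with a gene on the other strand, among them *Clca3a1*, *Gbx2*, *Chrm2* and *Cd3e*. *Apol9a*, *Klra4*, *Zfp982*, *BC147527*, *Ifi208* and *Ifi213* belong to families of similar sequence, whose reads the counting could split. The median gene model of the 66 was 3027.5 bases long, against 3899 for the 981 genes, and ran from 673 bases in *Rnase12* to 28790 in *Ryr2*. *Ryr2* had 13.2 normalized counts but only 0.459 per kilobase, the lowest of the set.

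On 28 lists of markers and pathways 15 of the 66 genes had a place, on 11 lists, and 51 were on none. The 4 of those 15 with 0 reads in both controls were *Epx*, *Siglech*, *Apol10b* and *Cd3e*. The name filter left out 7 other genes under the same limits, *Il12a*, *Slc13a5*, *Wnt10b*, *Igfbp6*, *Ms4a4d*, *Slc9b1* and *Cxcl9*. *Igfbp6*, which encodes a binding protein of insulin-like growth factors and not an immunoglobulin, had a mean of 0.480 in the controls and 14.8 in *Irf8*-OE.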

How the data were processed

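RNA-seq was made from poly(A)-selected RNA of 3 *Irf8*-OE and 2 control BMDC samples. The authors deposited a signal table of normalized counts, that is, reads scaled by a size factor of each sample without regard to gene length, and only for genes past their thresholds. The submitters' processing notes name fastp, HISAT2 2.0.5, featureCounts 1.5.0-p3, DESeq2 1.20.0, edgeR 3.22.5 and the build mm10, with no roles. The table also holds the authors' own group means, log2 fold changes, p-values and adjusted p-values, which were not used. The values in each sample were whole multiples of 1 step (100% within 0.01), which gave back the reads, although an automated check accepts this for 4 samples and not for *Irf8*-OE 3, whose step of 1.004 is near 1.

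Genes were tested with limma 3.58.1 in R 4.3.3 with trended empirical Bayes moderation, over all 1355 genes on log2(normalized counts + 1). A call needed a p-value under 0.05 after Benjamini-Hochberg adjustment and a log2 fold change beyond 1 either way. This called 1343 genes (99.1%), 787 higher. Count tests on recovered reads were alternatives only, with DESeq2 1.42.0 calling 1354 genes and edgeR 4.0.16 calling 1150. With 3 samples against 2 no exact permutation test goes below 0.1. P-values measure the spread between these samples, which may be technical. The fits were tested on simulated counts.

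The members, role groups, relatives and lists were chosen with earlier results of these data known. The genes named are the 20 with the highest mean in *Irf8*-OE, the 5 highest others per kilobase, every member on a list, the 3 just inside and 3 just outside the limits, the 3 with the widest spread, and *Irf8*. Other genes were named within their groups after their values were seen. Of the 66 genes, 1 that this rule covers is not reported here. Groups came from the sample titles. The same replicate numbers do not pair the samples, since the correlations of their deviations lay between -0.02 and 0.03. Coordinates are those of the table, and 63 of the 66 genes have the same ones in GENCODE vM21 (GRCm38). For 16 of the 66 genes no promoter was matched.

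The alternatives tried were other read limits, quantile normalization, DESeq2 and edgeR, pseudocounts of 0.1 and 10, a filter of 10 normalized counts in every sample of 1 group, a log2 threshold of 2, a block for the replicate number, and the omission of each sample in turn. The DESeq2 and edgeR tests without *Irf8*-OE 3, edgeR with the authors' size factors, and the count of genes at 0 without each control were added after the data were seen.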

Additional observations from a re-analysis of the deposited data

Results flagged for a closer look

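*Xist*, outside the 66 genes because it is X-linked and not protein-coding, had a mean of 12437 normalized counts in *Irf8*-OE against 0.562 in the controls. It was picked out because it is a strong signal in a gene that the comparisons do not use, in mice that the labels call male. The 4 Y-linked genes in the table had 0 reads in *Irf8*-OE. Whether the sex of the cells has a part in the levels of the 66 autosomal genes was not tested, and genotype and sex cannot be told apart in these samples.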

How the results depend on the processing

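The number of genes depends on the read limit. It was 66 at 3 reads, 21 at 0 reads and 34 at 1 read in each control, and 86 to 101 when 1 control was left out. Genes at 0 reads in both controls numbered 21, and 31 to 34 when 1 control was left out. At the limit of 0 reads, 4 in place of 15 genes were on a list.

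Of the 66 genes, 35 were called higher after quantile normalization, which lowers the median log2 fold change of all 1355 genes from 1.14 to 0.79. It left 1031 of the 1355 genes called, 509 of them higher, against 1343 and 787 in the main fit. Under the filter of 10 normalized counts 40 of the 66 were called higher, and only 40 passed it, all through *Irf8*-OE. That filter kept 1290 listed genes, of which 1278 were called. A pseudocount of 10 left 50 of the 66 and 1145 listed genes called, and took the median log2 fold change of the 66 from 3.11 to 1.13. Leaving out 1 sample gave 64 to 66, and 1238 to 1318 of all listed genes against 1343. A log2 threshold of 2 left 518 listed genes. The summed level in *Irf8*-OE was 1286, 1173 without *Clca3a1*, 966 after quantile normalization and 1272 to 1298 without 1 sample. The median coefficient of variation was 22.7%, and 17.3% to 20.1% without 1 sample.

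The replicate numbers do not pair the samples. With the replicate block 1319 (numbers from the titles) or 1271 (numbers from the descriptions) listed genes were called, and all 66 genes in both. None of the 66 genes was called lower under any fit, for which the rule and the authors' selection left little room. *Irf8* was under the fold threshold with edgeR (log2 fold change 0.92, and 0.99 without *Irf8*-OE 3) and at a threshold of 2. It kept its call in the other 14 fits. Without 1 *Irf8*-OE sample the mean moved by over 1.5 times for *Cd3e* (6.86 to 3.76), *Islr* (16.8 to 10.7) and *Hist1h1e* (14.5 to 9.33). The authors' selection of genes, 2 control libraries and totals of no more than 6 control reads limit every fold above.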
